A study of Mus musculus with 24 samples.

Results

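MicroRNA miR-126 is made as a hairpin from which 2 mature strands are cut, and each strand has its own assay on the cards used here, mmu-miR-126-3p and mmu-miR-126-5p. These 2 assays, chosen by name from the 584 miRNA assays in the table, were followed across 4 groups of mouse cells with 3 replicates each. L-1210 is a lymphocytic leukaemia line grown in suspension, M1 a myeloid leukaemia line grown in suspension, and PYS a teratocarcinoma line that grows attached and looks epithelial. CT-BM, the group the lines were set against, held primary marrow cells of mouse femur and tibia, although the growth protocol listed for it is that of a suspension culture. The lines were collected at passage 3 and no group was treated. Each line is a single line, and the mouse strain, age and number of animals behind CT-BM are not given in the labels used here. It is not stated whether the replicates came from separate cultures or animals, and the p-values therefore measure no more than the scatter of these samples, which may be technical.

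The miR-126 hairpin lies inside Egfl7, a gene whose protein is secreted by endothelial cells, and it is among the most abundant miRNAs of blood vessel lining. There miR-126-3p is known to sustain signalling downstream of vascular growth factors by repressing inhibitors such as Spred1 and Pik3r2. In blood, miR-126 is known from stem and progenitor cells, where it restrains entry into the cell cycle, and from megakaryocytes. The 5p strand, often treated as the lesser product, is known to repress Dlk1 in endothelial cells.

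The sequence of the 3p strand and of the hairpin that holds it are given to show what the assay reads and where it lies. They come from RefSeq on mouse build GRCm38.p6, where the gene is named Mir126a, and 1 of the 2 strands, the 3p, had a mature entry. In the first line capitals mark the seed, bases 2 to 8, which pairs with targets, and in the second they mark the stretch of the hairpin that becomes miR-126-3p.
miR-126-3p, chr2:26591402-26591423, plus strand: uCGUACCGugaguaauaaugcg
Mir126a hairpin, chr2:26591357-26591429, plus strand: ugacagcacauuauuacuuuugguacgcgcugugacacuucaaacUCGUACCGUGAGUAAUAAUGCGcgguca
The seed CGUACCG occurred in 1 of 1738 mature mouse sequences in that table, miR-126-3p itself. On the opposite DNA strand lies Mir126b, whose 58-base hairpin is the exact reverse complement of part of this one. No assay on the cards is named for it.

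Levels were measured by quantitative PCR. Each value is a threshold cycle (Ct), 1 cycle lower per doubling of template, so a lower Ct means more RNA. The table held 8969 wells, 367 to 380 per card run, of which 48.3% did not amplify, and Ct up to 35 counted as detected. Read depth does not apply, and the number of replicates limits the precision. Both strands sat on card A in 1 well per replicate and were detected in 12 of 12 replicates. The scaled level, the negative delta Ct, is the mean Ct of the control RNAs MammU6, snoRNA135 and snoRNA202 on the card minus the Ct of the assay, in log2 units. Over 119 card A assays detected in every replicate, the median SD between replicates on that scale was 0.39 in L-1210, 0.31 in M1, 0.28 in PYS and 0.20 in CT-BM. The controls differed between groups. Relative to CT-BM on card A, snoRNA202 led in L-1210 by 2.64 cycles, in M1 by 2.67 and in PYS by 1.53. For snoRNA135 L-1210 led by 1.11 cycles, M1 by 2.23 and PYS by 1.86. MammU6 was 0.74 cycles late in L-1210, 2.17 early in M1 and 0.567 late in PYS.

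The endothelial and progenitor miRNA miR-126-3p was lower in all 3 lines than in bone marrow, relative to the controls. Its Ct was 18.52, 19.53 and 18.17 in L-1210, 17.47, 16.87 and 16.61 in M1, 19.29, 18.61 and 19.14 in PYS, and 16.26, 16.97 and 16.62 in CT-BM. In raw cycles every L-1210 and PYS replicate was later than every CT-BM replicate, while M1 and CT-BM overlapped. As negative delta Ct it was -4.70, -5.25 and -4.85 in L-1210, -4.63, -4.61 and -4.35 in M1, -5.39, -5.13 and -4.91 in PYS, and -1.75, -1.91 and -1.76 in CT-BM. On this scale CT-BM stood above each line with no overlap, and the lines lay close together.

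The strand fell 8.74-fold in L-1210 against CT-BM (log2 change -3.13 ± 0.21, SE, n = 3 each, limma adjusted p = 2.03e-08). In M1 it fell 6.61-fold (-2.72 ± 0.21, limma adjusted p = 9.34e-08). In PYS it fell 10.1-fold (-3.34 ± 0.22, limma adjusted p = 7.24e-09). A change was called where it reached 2-fold with an adjusted p below 0.05, and by that rule calls were common, at 68.2% of assays for L-1210, 69.5% for M1 and 78.5% for PYS in either direction. Lower calls made up 45.6% of the 333 assays tested in L-1210, 44.3% of 325 in M1 and 38.7% of 362 in PYS. Of the assays tested, 27.0%, 30.8% and 26.8% had a more negative change than miR-126-3p in L-1210, M1 and PYS, so its fall was not among the extremes. Of the calls against CT-BM, 33.0% were higher for L-1210, 36.3% for M1 and 50.7% for PYS. Over the scalings described below that share ran from 14.9% to 63.9%, from 24.5% to 65.6% and from 37.8% to 66.3%. In bulk RNA, fewer cells that make miR-126 and less miR-126 per cell cannot be told apart.

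The partner strand miR-126-5p was lower in all 3 lines as well. Its Ct was 21.96, 22.52 and 21.66 in L-1210, 21.40, 20.95 and 20.59 in M1, 22.62, 21.85 and 22.45 in PYS, and 20.71, 21.29 and 21.15 in CT-BM. Again M1 and CT-BM overlapped in raw cycles and the L-1210 and PYS replicates were later than all of CT-BM. Its negative delta Ct was -8.14, -8.24 and -8.34 in L-1210, -8.56, -8.69 and -8.32 in M1, -8.72, -8.36 and -8.23 in PYS, and -6.20, -6.23 and -6.29 in CT-BM. CT-BM was again above each line without overlap. The fall was 4.004-fold in L-1210 (log2 change -2.002 ± 0.19, SE, n = 3 each, limma adjusted p = 8.62e-07), 4.87-fold in M1 (-2.29 ± 0.19, limma adjusted p = 2.44e-07) and 4.595-fold in PYS (-2.20 ± 0.20, limma adjusted p = 2.59e-07). Thus 2 of 2 strands passed in each comparison with CT-BM, beside the shares of lower calls given above.

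**Figure D1:**
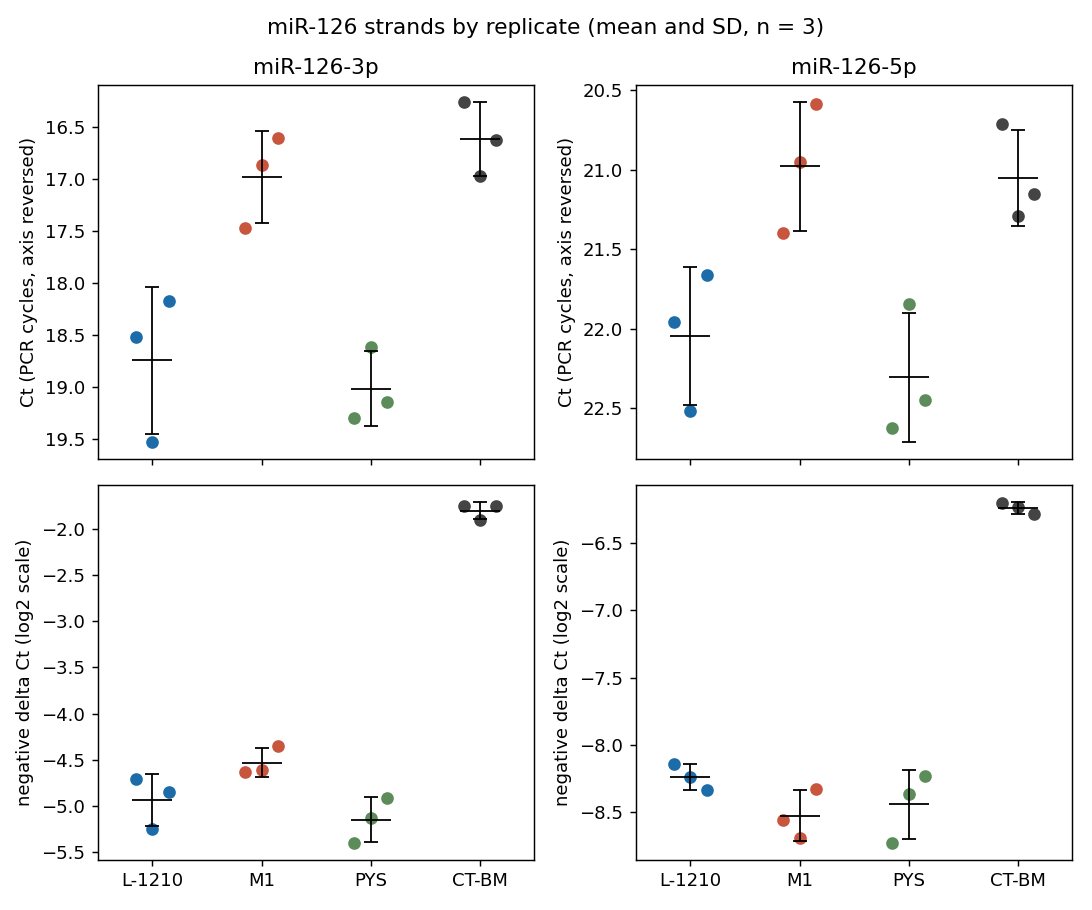
Ct (top, axis reversed, PCR cycles) and negative delta Ct against the 3 controls (bottom, log2 scale) of miR-126-3p (left) and miR-126-5p (right) in each replicate of L-1210, M1, PYS and CT-BM, with mean and SD (n = 3). In raw cycles M1 overlaps CT-BM, and after scaling CT-BM lies above each line for both strands, at a mean of -1.81 for the 3p and -6.24 for the 5p.

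The position of each strand among the other miRNAs of its replicate needs no control RNA. Ordered by Ct among the 119 card A assays, with 1 the earliest, miR-126-3p stood at places 17 to 21 in L-1210, 20 to 22 in M1, 22 to 27 in PYS and 8 to 12 in CT-BM. For miR-126-5p the places were 52 to 57 in L-1210, 59 to 61 in M1, 56 to 59 in PYS and 40 to 42 in CT-BM. For both strands the CT-BM places did not overlap those of any line, M1 included. A place depends also on the levels of the other assays.

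The changes were recomputed under 9 scalings. Besides the 3 controls together, levels were scaled to each control alone, to both snoRNAs, to U87, to the mean of the common assays (those present at Ct up to 35 in all 12 replicates), by quantiles, and left as raw Ct. For miR-126-3p the change was negative in 9 of 9 scalings in each line, from -4.76 to -1.38 in L-1210, -3.04 to -0.37 in M1 and -4.26 to -1.83 in PYS. It passed in 9 of 9 in L-1210 and PYS and in 8 of 9 in M1, where raw Ct gave -0.37. For miR-126-5p the change ran from -3.64 to -0.26 in L-1210, -2.60 to 0.072 in M1 and -3.12 to -0.69 in PYS. It passed in 6, 8 and 8 of 9 scalings, in that order. With MammU6 alone it did not pass in L-1210 or PYS. In L-1210 the mean of common assays (-0.88) and raw Ct (-0.998) also left it short of 2-fold, and in M1 raw Ct gave 0.072.

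These scalings moved the median change of all tested assays, from -2.47 to 1.05 in L-1210, -1.03 to 1.56 in M1 and -0.84 to 1.84 in PYS. A control shifts every assay of a card alike, so the distance of a strand from this median hardly depends on the control by construction, and it is given for the 3 controls alone. For miR-126-3p L-1210 lay at -2.30, M1 at -2.13 and PYS at -3.42. For miR-126-5p L-1210 lay at -1.18, M1 at -1.69 and PYS at -2.28.

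**Figure D2:**
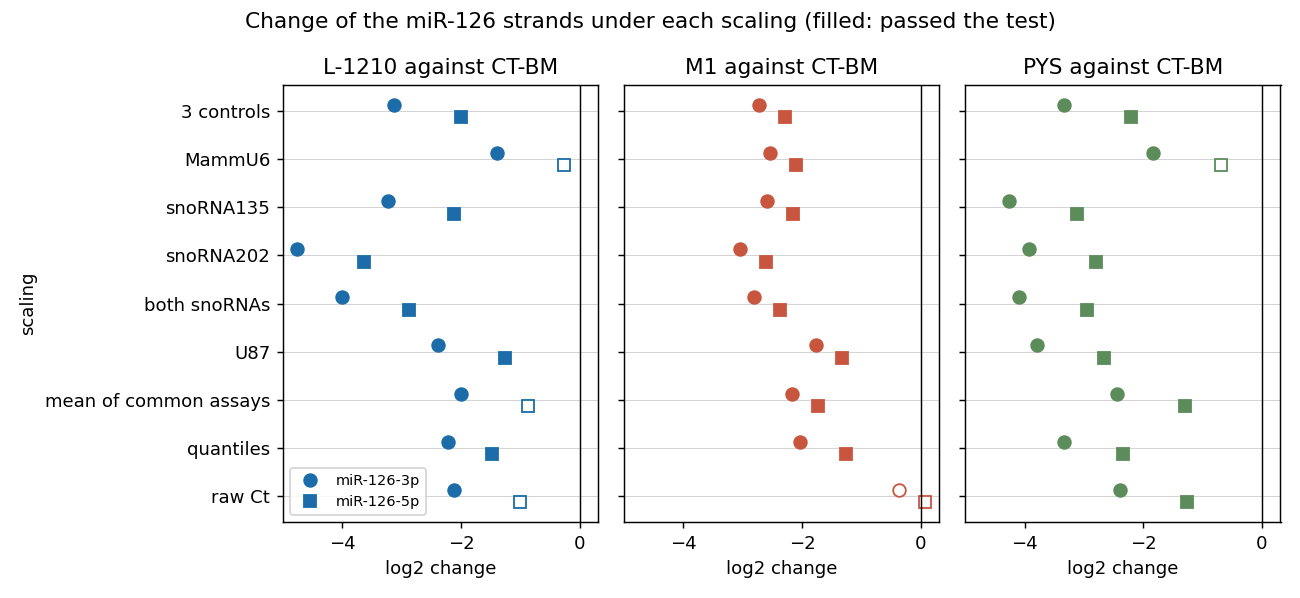
Log2 change of miR-126-3p (circles) and miR-126-5p (squares) in L-1210, M1 and PYS against CT-BM under 9 scalings, filled where the change passed the test. All points are negative except miR-126-5p in M1 with raw Ct (0.072), and open points are 3 squares in L-1210, both symbols in M1 with raw Ct and 1 square in PYS.

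Among the lines the levels were close relative to the 3 controls. From low to high, miR-126-3p averaged -5.14 ± 0.24 in PYS, -4.93 ± 0.28 in L-1210, -4.53 ± 0.16 in M1 and -1.81 ± 0.090 in CT-BM (negative delta Ct, SD, n = 3 each). PYS and L-1210, neighbours in that order, differed by -0.21 (95% interval -0.68 to 0.26, limma adjusted p = 0.381). L-1210 and M1 differed by -0.40 (-0.86 to 0.053, limma adjusted p = 0.107). PYS was 0.62 below M1 (log2 change -0.62 ± 0.22, limma adjusted p = 0.0184), a difference under 2-fold and so not called. With the 3 controls, in these 3 comparisons 0 calls fell on miR-126-3p, where 55.9% of 306 assays (L-1210 against M1), 73.5% of 351 (PYS against L-1210) and 73.3% of 341 (PYS against M1) were called in either direction. Measured from the median change of all tested assays, the distances were larger for PYS. There miR-126-3p lay at -1.29 against M1 and -0.91 against L-1210, while L-1210 lay at -0.24 against M1.

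For miR-126-5p the means were -8.52 ± 0.19 in M1, -8.44 ± 0.26 in PYS, -8.24 ± 0.10 in L-1210 and -6.24 ± 0.043 in CT-BM (SD, n = 3 each). PYS lay 0.085 above M1 (95% interval -0.35 to 0.52), L-1210 0.28 above M1 (-0.14 to 0.70) and PYS -0.20 from L-1210 (-0.64 to 0.24), with limma adjusted p of 0.718, 0.214 and 0.376. The 3 lines thus overlapped for this strand. The calls between lines rested on the scaling. Over 9 scalings miR-126-3p was called lower in PYS than in M1 in 5 (changes from -2.03 to 0.71) and lower in PYS than in L-1210 in 3 (-1.41 to 0.83). In L-1210 against M1 it was called lower in 3 and higher in 1 (-1.76 to 1.15). For miR-126-5p the calls were 3 lower and 1 higher in PYS against M1, 2 lower in PYS against L-1210, and 2 lower and 1 higher in L-1210 against M1. With MammU6 alone L-1210 was above M1 for both strands (1.15 for the 3p and 1.84 for the 5p), and with snoRNA202 alone it was below (-1.72 and -1.03).

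A measure that needs no control is the gap between the strands in the same replicate and card, the Ct of miR-126-5p minus that of miR-126-3p. The size of the gap reflects the efficiency of each assay as well as the amounts, so it is read only as a difference between groups. It was 3.44, 2.99 and 3.49 cycles in L-1210, 3.92, 4.09 and 3.98 in M1, 3.33, 3.24 and 3.32 in PYS, and 4.45, 4.32 and 4.53 in CT-BM. Bone marrow had the widest gap and M1 the next, and neither overlapped any other group, while L-1210 and PYS overlapped each other.

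The gap narrowed by 1.13 cycles in L-1210 against CT-BM (log2 change -1.13 ± 0.25, SE, limma adjusted p = 0.00116) and by 1.14 in PYS (-1.14 ± 0.25, limma adjusted p = 0.000654), so the 3p strand fell 2.18-fold and 2.20-fold further than the 5p. In M1 the difference of -0.44 (95% interval -0.97 to 0.088, limma adjusted p = 0.121) did not pass. Between lines, L-1210 lay -0.69 from M1 (limma adjusted p = 0.0399) and PYS -0.70 from M1 (limma adjusted p = 0.0159), both under 2-fold and not called. PYS and L-1210 differed by -0.013 (95% interval -0.54 to 0.51, limma adjusted p = 0.96). The call in L-1210 rested on replicate 2, without which the change was -0.97, short of 2-fold, at a limma adjusted p of 0.00137.

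**Figure D3:**
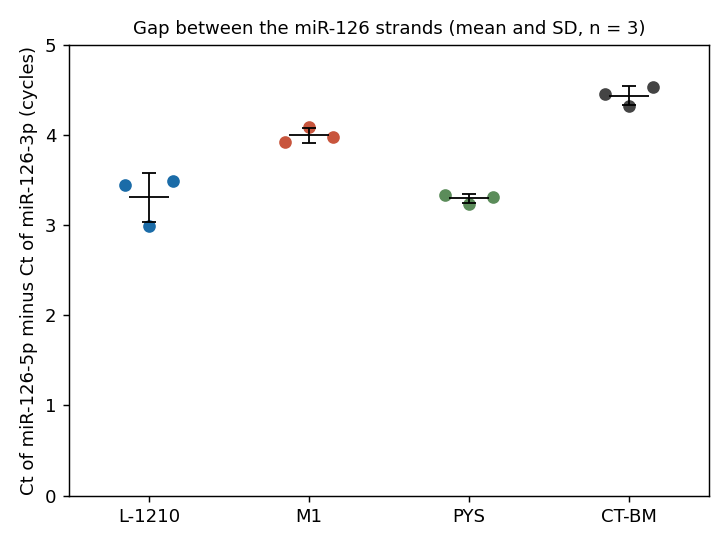
Gap between the miR-126 strands (Ct of miR-126-5p minus Ct of miR-126-3p, in cycles) in each replicate of L-1210, M1, PYS and CT-BM, with mean and SD (n = 3). The means were 3.31, 4.00, 3.29 and 4.43 cycles, and L-1210 replicate 2 is the lowest point at 2.99.

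Unequal change of the strands was common among the hairpins tested, most of which had their strands on different cards. Of 140 mouse hairpins with both strands on the cards, 35 had both detected in all 12 replicates, and the test above was run over these 35. A lower difference between the strands (signed as 3p minus 5p, or as the main strand minus the starred one) was called for 22.9% of them for L-1210, 37.1% for M1 and 40% for PYS against CT-BM, and a change in either direction for 42.9%, 51.4% (M1) and 54.3% (PYS). Between lines 20% (L-1210 against M1), 54.3% (PYS against L-1210) and 74.3% (PYS against M1) changed in either direction. By size of change miR-126 ranked 14 of 35 for L-1210, 30 for M1 and 18 for PYS. Only 7 of the 35 hairpins had both strands on the same card. Beside miR-126, these were miR-331, miR-339, miR-378, miR-532, miR-542 and miR-877. In the other 28 the gap depends on the controls of both cards, and so do the shares and ranks above. Fitted alone, the 7 same-card hairpins gave 1 called gap in L-1210 (miR-126), 1 in M1 and 5 in PYS against CT-BM. Against CT-BM in PYS the gap of miR-331 differed by 0.070 and that of miR-542 by 3.02, the extremes in size among these 7. The gap of miR-126 spread less within groups, with a pooled SD of 0.154 cycles, than the median hairpin with both strands on the same card (0.446) or on different cards (0.388). The SE given for miR-126 draws on the spread of all 35.

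**Figure D4:**
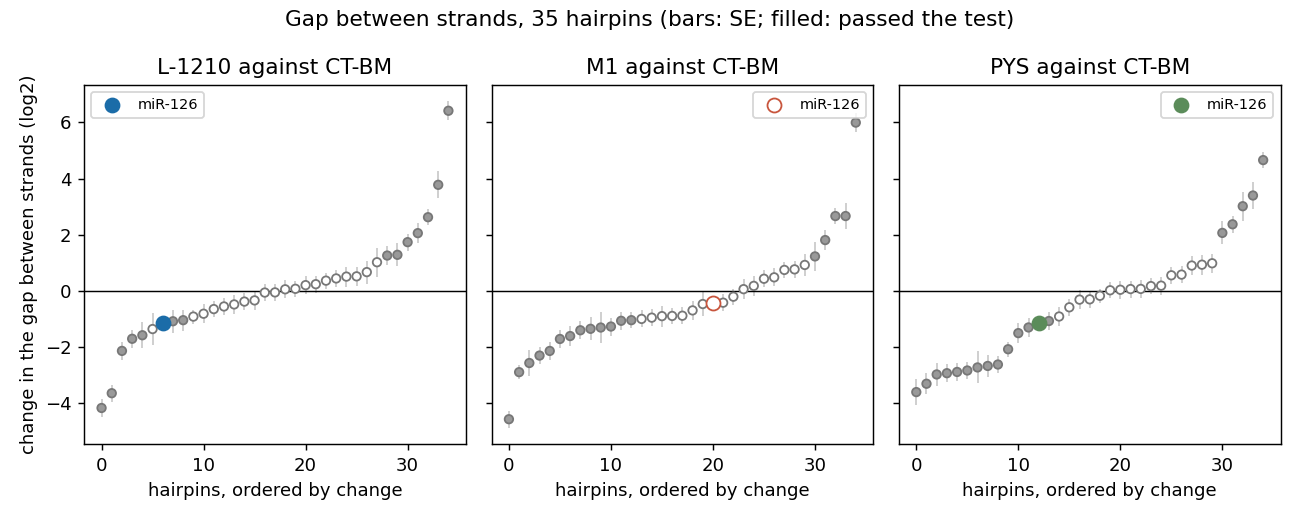
Change in the gap between strands (log2, with SE) of 35 hairpins in L-1210, M1 and PYS against CT-BM, in order of size, with called hairpins filled and miR-126 in colour. miR-126 is called at -1.13 in L-1210 and -1.14 in PYS and lies at -0.44, open, in M1. In 28 of the hairpins the strands are on different cards, so their gaps depend on the controls.

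The assays whose profiles were most like the strands were found by the root mean square difference between centred profiles over the 12 replicates, among the 186 other assays detected in all of them. This is a description over replicates that share 4 groups. Nearest to miR-126-3p was let-7g*, the passenger strand of let-7g, at 0.35 cycles, then miR-126-5p at 0.50, the rat-named miR-664 at 0.56, miR-21*, the passenger strand of miR-21, at 0.57 and miR-140, known from cartilage, at 0.60. Over the 186 assays the median was 1.71. The log2 change of let-7g* against CT-BM was -3.24 for L-1210, -2.77 for M1 and -3.64 for PYS, close to the values of miR-126-3p. Nearest to miR-126-5p were miR-326 at 0.46, miR-126-3p at 0.50, miR-652 at 0.53, the hypoxia-induced miR-210 at 0.53 and miR-30e at 0.62, where the median was 1.505. Between assays of the same card the difference does not depend on the controls, and among these card A neighbours each strand was the nearest to the other. The assays let-7g*, miR-664, miR-21* and miR-326 are on card B, so their distance depends on the controls of both cards, and the order under another scaling was not tested.

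Because miR-126 is known from blood stem and progenitor cells, 13 other miRNAs known to be enriched there were counted. In L-1210, 3 of 13 tested were higher and 8 lower than in CT-BM, with a median log2 change of -4.45 beside -0.82 over all assays tested. In M1, 2 of 12 were higher and 8 lower (median -6.35 beside -0.59), and in PYS 1 of 12 was higher and 9 lower (-3.98 beside 0.08). Shares of calls over all assays were 22.5% higher for L-1210, 25.2% for M1 and 39.8% for PYS, with the lower shares as above. Lower members outnumbered higher ones in each line under all 9 scalings. Members not detected in a line, such as miR-99a and miR-99b in L-1210 and M1, could only come out lower there. Abundant in blood stem cells, miR-125a-5p was 2643-fold lower in L-1210 and 2909-fold lower in M1. In PYS its log2 change was 0.081 and did not pass. Larger falls of this list in M1 were those of miR-100, miR-99b and miR-99a, none of them detected there. The Hox-cluster miRNA miR-196b was 5048-fold lower in L-1210 and 13.4-fold lower in PYS, but 3.17-fold higher in M1. The lymphoid and myeloid oncogenic miRNA miR-155 was 5.25-fold higher in L-1210, 5.32-fold higher in M1 and 103-fold lower in PYS. The 1 member of this list called higher in PYS against CT-BM was miR-99b, at 40.4-fold. Not detected in CT-BM, miR-10b was at least 140-fold higher in L-1210. Assays of near-identical relatives, such as those of miR-125 and miR-99, may share signal.

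A list of 13 vascular miRNAs, 2 of them also in the progenitor list, moved in both directions. In L-1210, 2 of 12 tested were higher and 6 lower (median log2 change -1.52 beside -0.82 over all assays tested), in M1 5 of 12 were higher and 5 lower (0.00 beside -0.59), and in PYS 3 of 12 were higher and 6 lower (-0.81 beside 0.08). Over all assays the lower calls were 45.6% for L-1210, 44.3% for M1 and 38.7% for PYS, so the counts of lower members lay near that background in L-1210 and M1. With MammU6 alone the counts were 6 and 6 in L-1210, 4 and 5 in M1, and 6 and 5 in PYS. The hypoxia miRNA miR-210 fell in each line, 7.45-fold in L-1210, 9.88-fold in M1 and 4.37-fold in PYS. It was named above for a profile like that of miR-126-5p, so its fall in each line follows from that choice. Larger falls in L-1210, M1 and PYS were those of miR-218 (log2 change -9.64, -10.97 and -9.15) and miR-130a (-6.71, -6.73 and -4.84). The miR-221 and miR-222 pair, which acts against vessel growth in endothelial cells, was called in both directions across the lines. In M1 miR-221 was 14.7-fold higher, while the log2 change of miR-222 was 0.196 and did not pass (limma adjusted p = 0.633). In L-1210 it was not detected and at least 2907-fold lower, and miR-222 was 16904-fold lower there and 73166-fold lower in PYS. Higher in each line was miR-132, which growth factors induce in endothelium, at 5.56-fold in L-1210, 5.37-fold in M1 and 12.04-fold in PYS.

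Several miRNAs listed for other marrow cell types were lower in the lines as well. The erythroid pair miR-451 and miR-486 was lower in each line (2 of 2), as were 4 of 4 tested stromal miRNAs of 5. So were 3 of 3 miRNAs listed for megakaryocytes and platelets, miR-223, miR-150 and miR-146a, the first 2 of which are also on the blood list. All 3 were detected in every replicate of each line, so they do not mark megakaryocytes alone. Over all assays, as above, 38.7% to 45.6% were lower. Assays not detected in a line entered its test through CT-BM and could only come out lower. The erythroid and stromal counts were therefore partly fixed by the filter, and the shares over all assays are no fair measure for them. The stromal count was 3 of 4 in L-1210 with raw Ct, the mean of common assays or MammU6, and in M1 with raw Ct, and the megakaryocyte count was 2 of 3 in M1 with quantiles, raw Ct and U87. On a log2 scale the summed level of the 5 stromal assays lay between -10.99 and -10.56 in L-1210, -11.54 and -10.44 in M1, -13.47 and -12.86 in PYS, and -6.29 and -5.70 in CT-BM. Stromal miR-143 and miR-214 were not detected in any line, and erythroid miR-486 likewise. In L-1210 miR-145 and miR-451 were not detected either. The summed level of miR-223, miR-150 and miR-146a lay between -5.30 and -4.33 in L-1210, -1.86 and -1.63 in M1, -10.94 and -10.40 in PYS, and 1.54 and 1.72 in CT-BM. That of the erythroid pair lay between -20.67 and -19.72 in L-1210, -22.74 and -21.16 in M1, -13.73 and -13.25 in PYS, and -5.96 and -5.80 in CT-BM. In L-1210 neither erythroid assay was detected, and in M1 only miR-451 was, in 1 replicate at a Ct near 35. The sums of L-1210 and M1 are therefore floor values, the assigned Ct of 35 set against the controls, and their difference is not one of measured levels. The part of these cell types in the fall of miR-126 was not tested. The only endothelial markers on the fixed list are the miR-126 strands themselves, so no separate endothelial marker was tested.

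The labels could be checked in part. The blood-wide miR-142-3p had a mean Ct of 17.8 in L-1210, 17.5 in M1, 31.99 in PYS and 17.5 in CT-BM, so it was late only in PYS in raw cycles. Relative to the controls it was 5.09-fold lower in M1 than in CT-BM. Of the 4 listed blood miRNAs, miR-142-3p, miR-142-5p, miR-223 and miR-150, 3 were lower in L-1210 than in CT-BM. In M1 and in PYS 4 of 4 were lower, beside the same background shares. Not detected in PYS, miR-142-5p could only come out lower there. Granulocyte miR-223 (13101-fold lower in L-1210) and lymphocyte miR-150 (1750-fold lower) differ between blood lineages, so the count does not check the labels. In L-1210 the count was 2 of 4 with raw Ct, U87, the mean of common assays or MammU6, and 4 of 4 with either or both snoRNAs, and in M1 it was 2 of 4 with raw Ct. The part of these 4 miRNAs in the fall of miR-126 was not tested. Their summed log2 level lay between -5.06 and -2.91 in L-1210, -2.11 and -1.89 in M1, -11.44 and -10.97 in PYS, and 1.49 and 1.67 in CT-BM. Earliest of the 4 in CT-BM was miR-223, at a mean Ct of 13.5. The 10 pluripotency-linked assays, from the miR-290 cluster and the miR-302 group, were all detected in every PYS replicate. In no replicate with a value were 6 of these 10 detected in L-1210, 7 in M1 and 7 in CT-BM.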

How the data were processed

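Total RNA of 12 replicates, each on cards A and B (24 runs, 24 GEO samples), was extracted with a mirVana kit, reverse transcribed, preamplified and run on TaqMan low density arrays for 40 cycles, per the labels. The deposited table holds the Ct of each well, in PCR cycles, with automatic baseline and threshold and not normalized, per the file headers. Software is not given in the sources used here, and 0 columns of sample values were left unused.

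A Ct of 35 was assigned to wells that were undetermined or later, repeat wells were averaged, and the negative delta Ct taken against MammU6, snoRNA135 and snoRNA202 of the same card (Python 3.11.15, pandas 2.3.3, numpy 2.4.6). The fit of all assays used lmFit and eBayes of limma 3.58.1 (R 4.3.3) with a mean for each of 4 groups. Tested were assays detected throughout 1 or both groups compared, with Benjamini-Hochberg adjustment over those tested. An assay detected in only 1 of the groups compared could only come out higher in that group. The strand gap was fitted likewise over 35 hairpins. Folds against a group with no detection are lower bounds. The fits were tested on simulated data, and figures drawn with matplotlib 3.10.9.

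Members and lists were chosen with earlier results of these data known. Named were both strands, the 5 nearest profiles of each, and up to 3 called members per list, direction and comparison, of which a selection is given. Others (miR-125a-5p in M1 and PYS, miR-155 and miR-196b in other lines, miR-222 in M1, miR-218 and miR-130a, and single marker or hairpin values) were added after their values were seen. Alternatives were other scalings, Ct limits, filters and fits, a replicate block, and leaving out each replicate. U87 was added after seeing the data. No sign was seen that replicate numbers pair the samples, though 3 replicates per group cannot exclude it. Over 187 assays the deviations of same-numbered replicates correlated at -0.45 to 0.33, and 0 of 6 comparisons had every correlation over 0.1.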

Additional observations from a re-analysis of the deposited data

How the results depend on the processing

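Ct limits of 32 and 40, no filter, a fit restricted to the compared pair, robust trended eBayes and the replicate block changed no call on a miR-126 strand or on the strand gap. With the replicate block miR-126-3p changed by -3.13 in L-1210 against CT-BM and 229 assays were called there. Scaling moved the strands most. MammU6 alone gave miR-126-5p -0.26 in L-1210 and -0.69 in PYS against CT-BM, both short of the call. It called L-1210 above M1 at 1.15 (3p, turned) and 1.84 (5p), and PYS above M1 at 1.41 (5p). With snoRNA135 alone PYS was called below L-1210 (-1.02 for the 3p, -1.01 for the 5p) and below M1 (-1.66, 3p). With snoRNA202 alone L-1210 was called below M1 at -1.72 (3p) and -1.03 (5p, turned), and with both snoRNAs L-1210 (-1.18) and PYS (-1.28) were called below M1 for the 3p. The mean of common assays gave miR-126-5p -0.88 in L-1210 against CT-BM. Quantiles called the 3p in PYS below L-1210 (-1.13) and M1 (-1.30), and the 5p below M1 (-1.07, turned). Raw Ct gave the 5p -0.998 in L-1210, and the 3p -0.37 and the 5p 0.072 (turned) in M1, against CT-BM. It called L-1210 below M1 (-1.76 for the 3p, -1.07 for the 5p, turned) and PYS below M1 (-2.03, and -1.33, turned). U87, added after seeing the data, called PYS below L-1210 (-1.41 and -1.40) and M1 (-2.03, and -1.33, turned). The cause of these moves was not tested.

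With no fold minimum, PYS against M1 passed for the 3p (-0.62) and for the gap (-0.70), as did the gap in L-1210 against M1 (-0.69), where 12 hairpins passed, against 7 with the minimum. With no filter 473 assays were called in L-1210 and 487 in M1 against CT-BM, 349 in L-1210 against M1 and 401 in PYS against M1, and with only assays detected in all 12 replicates, fewer tested, 98, 103 and 124 (PYS) against CT-BM, 87 in L-1210 against M1, 120 in PYS against L-1210 and 115 in PYS against M1. Restricted to 7 same-card hairpins, 1, 1 and 5 gaps were called in L-1210, M1 and PYS against CT-BM, 0 in L-1210 against M1, 3 in PYS against L-1210 and 4 in PYS against M1, with the miR-126 calls kept in L-1210 and PYS against CT-BM. Beside that count of 0 in limma, 2 of these 7 had an unadjusted p under 0.05 in the fit of 35 hairpins. Leaving out 1 replicate at a time, the miR-126 gap change in L-1210 against CT-BM ran from -1.22 to -0.97, and the hairpins called in L-1210 against M1 from 3 (without M1 replicate 2) to 12 (without L-1210 replicate 1). The strand changes against CT-BM stayed called in each of these, from -3.24 to -2.97 (L-1210), -2.81 to -2.67 (M1) and -3.46 to -3.21 (PYS) for the 3p. Precision is limited by 3 replicates and 1 well per replicate.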
